A study of Mus musculus with 16 samples.

Results

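Maternal cypermethrin without restraint stress was compared with vehicle without stress in migrating GABAergic cells of the embryonic mouse cortex. The comparison used 8 of the 16 libraries of the study, chosen by their labels: 4 from embryos of cypermethrin-dosed dams and 4 from embryos of vehicle-dosed dams, none of the dams restrained. Cypermethrin dams were CD1 mice given alpha-cypermethrin at 10 mg/kg by oral gavage every morning of gestational days 11 to 14, and vehicle dams received corn oil on the same days. The last dose preceded euthanasia by 90 min. All embryos of both groups were GAD67-GFP+/-, so the reporter allele was shared by exposed and control embryos, and all were recorded as embryonic day 14.5 males from separate litters. Each library came from about 1000 GFP-positive cells, about 100 from each of 10 fixed sections of 10 µm, cut out by laser at the leading edge of migration in the cortical plate. The remaining 8 libraries came from dams that were also restrained, with and without cypermethrin, and entered the fit to estimate the spread between embryos.

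Cypermethrin is a pyrethroid insecticide, and pyrethroids slow the closing of voltage-gated sodium channels, which prolongs sodium entry and raises neuronal excitability. Cortical interneurons are born in the ganglionic eminences and migrate tangentially into the cortical plate, guided by chemokines, neuregulin and ephrin signals. Ambient GABA, calcium transients and endocannabinoids are known to affect that migration, and fetal hormone and detoxification pathways can respond to maternal chemical exposure.

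Total counts in the 8 libraries ran from 2291283 to 4091668, and 13158 to 15756 genes had at least 1 count. Median correlations of each library with the others, on log2 CPM (read counts scaled to library size), were 0.81 to 0.89. Cypermethrin replicate 3 separated from the other 7 libraries on the first principal component (29.9% of the variance), cypermethrin replicate 4 on the second (24.8%) and vehicle replicate 1 on the third (16.5%). A number in the library descriptions divided the samples, and its meaning is not given in the labels: 1 value held vehicle replicates 1 and 2 with cypermethrin replicate 1, and the other held the remaining 5. All 8 libraries had Y-linked transcripts, for example 68.1 to 137 CPM of Eif2s3y. The stressed vehicle replicate 1, also labelled male, had 0 CPM of Eif2s3y, Kdm5d and Ddx3y and 0.476 CPM of Uty. That library also had the lowest median correlation of the 16 (0.79). It affects the comparison without stress only through the shared estimate of spread, gene filter and scaling. It is 1 of the 4 vehicle libraries of the stressed comparison, whose values are given with and without it.

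No gene was called different between cypermethrin and vehicle after adjustment for the 13224 genes tested. edgeR's quasi-likelihood test called 0 genes at a Benjamini-Hochberg adjusted p under 0.05, or 0% of those tested, and the smallest adjusted p was 0.999. DESeq2 also called 0 genes, with a smallest adjusted p of 0.0578, and limma voom called 0. At an unadjusted p under 0.05, edgeR gave 491 genes (3.71% of those tested), DESeq2 671 and limma voom 415. Of the 491, 315 had higher fitted levels with cypermethrin (2.38%) and 176 had lower ones (1.33%). With upper quartile scaling the same threshold gave 187 higher and 211 lower, and with limma voom 181 and 234, so the balance of directions depended on the scaling and the tool. The 491 became 145 when cypermethrin replicates 3 and 4 were both left out, 334 without vehicle replicate 2 and 766 without cypermethrin replicate 1. Leaving out the stressed vehicle replicate 1, which is in neither group, gave 670 (431 higher and 239 lower). With the number in the library descriptions as a term 0 genes were called and 337 had an unadjusted p under 0.05, and within its larger set of 5 libraries these were 0 and 464. Groups did not overlap for 333 genes (2.52%), of which 158 were higher with cypermethrin (1.19%) and 175 lower (1.32%), and on unscaled library totals these became 103 and 219. Every individual difference between the groups without stress is therefore a measured value that did not pass the test, with an adjusted p of 0.999 or more in edgeR.

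The precision of the comparison depended strongly on expression level. Tested genes were divided by mean level into 4 equal sets of 3306. In the highest set, from 67.9 to 16888 CPM, log2 differences had a median SE of 0.27. In that set 81.5% of genes had a 95% interval lying within a 2-fold change in either direction, and 860 lay within a 1.5-fold change. In the lowest set, up to 9.50 CPM, the median SE was 1.17 and 0% of genes were bounded within 2-fold. In all, 3517 of the 13224 genes were bounded within 2-fold, and for the others a 2-fold difference in at least one direction was not excluded by the interval.

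The genes with the smallest p among those fitted higher encoded a cell cycle regulator, an RNA-binding protein, a cannabinoid receptor and several proteins of general cell function. Ccnd2 encodes cyclin D2, which drives progenitors through G1 and is abundant in the embryonic cortex. Its level was 2995, 3782, 3472 and 3671 CPM in the vehicle libraries, in replicate order, and 4017, 4135, 5975 and 6659.5 CPM in the cypermethrin libraries. The groups did not overlap, and cypermethrin replicates 3 and 4 were highest while replicates 1 and 2 lay just above the highest vehicle library. The fitted log2 difference was 0.58 ± 0.14 (SE), with an unadjusted p of 0.000233 in edgeR. Without cypermethrin replicates 3 and 4 the difference was 0.23, and within the 2 values of the number in the library descriptions it was 0.25 (3 libraries) and 0.66 (5 libraries). Ccnd2 lies on the minus strand of chromosome 6 from 127125162 to 127152193 (mm10) and overlaps the transcript 9330179D12Rik of the other strand, so its count is uncertain without knowledge of strand use.

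Cnr1 encodes the cannabinoid receptor CB1, which is expressed by migrating interneurons and mediates responses to endocannabinoids. It measured 566, 559.5, 638 and 619.7 CPM with vehicle and 951, 693, 1119.6 and 824 CPM with cypermethrin. Every cypermethrin library exceeded every vehicle library, with replicate 2 nearest to the vehicle range, and the means were 596 ± 38.9 and 897 ± 182 CPM (SD, n = 4 each). The log2 difference was 0.59 ± 0.15, with a 95% interval of 0.28 to 0.90. Leaving out 1 library at a time moved it between 0.47 and 0.70, and without both cypermethrin replicates 3 and 4 it was 0.46. Within the 2 values of the number in the library descriptions it was 0.76 (3 libraries) and 0.49 (5 libraries).

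Cpeb1 encodes a cytoplasmic polyadenylation element binding protein that controls translation of stored mRNAs. Its level was 1.35, 0.267, 2.02 and 1.54 CPM with vehicle and 4.04, 2.16, 35.1 and 75.7 CPM with cypermethrin. Cypermethrin replicates 3 and 4 stood far above all other libraries, while replicates 1 and 2 lay only slightly above the highest vehicle library. The log2 difference was 4.45 ± 1.08, 3.37 without cypermethrin replicate 4, and 1.24 without replicates 3 and 4. Tmem268, a transmembrane protein gene, was also highest in replicates 3 and 4, at 0.337, 1.07, 3.78 and 1.03 CPM with vehicle and 2.27, 2.47, 39.6 and 65.4 CPM with cypermethrin, and its groups overlapped.

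Other genes with small p had single libraries far above the rest. Mmrn1 encodes multimerin 1, a secreted protein of endothelium and platelets. Its level was 6.06, 5.07, 19.4 and 17.0 CPM with vehicle and 25.0, 32.7, 135 and 32.2 CPM with cypermethrin, without overlap, and its log2 difference moved from 2.24 to 1.33 without cypermethrin replicate 3. Ralb encodes a Ras-like small GTPase acting in exocytosis, and measured 8.75, 5.88, 13.1 and 10.8 CPM with vehicle and 16.9, 26.8, 135 and 18.7 CPM with cypermethrin. Its replicate 3 was again the highest library, and without it the log2 difference moved from 2.35 to 1.11. Ints7, a subunit of the Integrator complex that processes small nuclear RNAs, measured 28.6, 27.5, 26.2 and 18.5 CPM with vehicle and 30.3, 28.1, 66.7 and 296 CPM with cypermethrin. Here replicate 4 was highest and replicate 2 lay within the vehicle range, and the log2 difference of 2.05 ± 0.55 became 0.72 without replicate 4.

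Smaller but more even differences were measured for Atxn10, Bzw1 and Lcorl. Atxn10 encodes ataxin 10, a cytoplasmic protein that supports neuronal survival, and measured 258, 295, 343 and 273 CPM with vehicle and 404, 376, 502 and 532 CPM with cypermethrin. Lcorl encodes a ligand-dependent corepressor-like nuclear protein, and measured 221, 278, 295 and 264 CPM with vehicle and 394, 368, 429 and 415 CPM with cypermethrin. Neither gene had overlapping groups, and the 4 cypermethrin libraries lay close together for Lcorl, at a mean of 401 ± 26.3 CPM against 264 ± 31.6 CPM (SD, n = 4 each). Bzw1, a translation regulator, measured 72.0, 136, 124 and 125 CPM with vehicle and 161, 160.1, 292 and 214 CPM with cypermethrin, again without overlap. Their log2 differences were 0.63 ± 0.18 for Atxn10, 0.60 ± 0.18 for Lcorl and 0.86 ± 0.25 for Bzw1. Fam118b and Palm2, the other 2 of the 12, had log2 differences of 1.39 ± 0.38 and 1.51 ± 0.43, each with cypermethrin replicates 3 and 4 highest. Fam118b, Palm2 and Lcorl overlap other annotated genes.

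**Figure D1:**
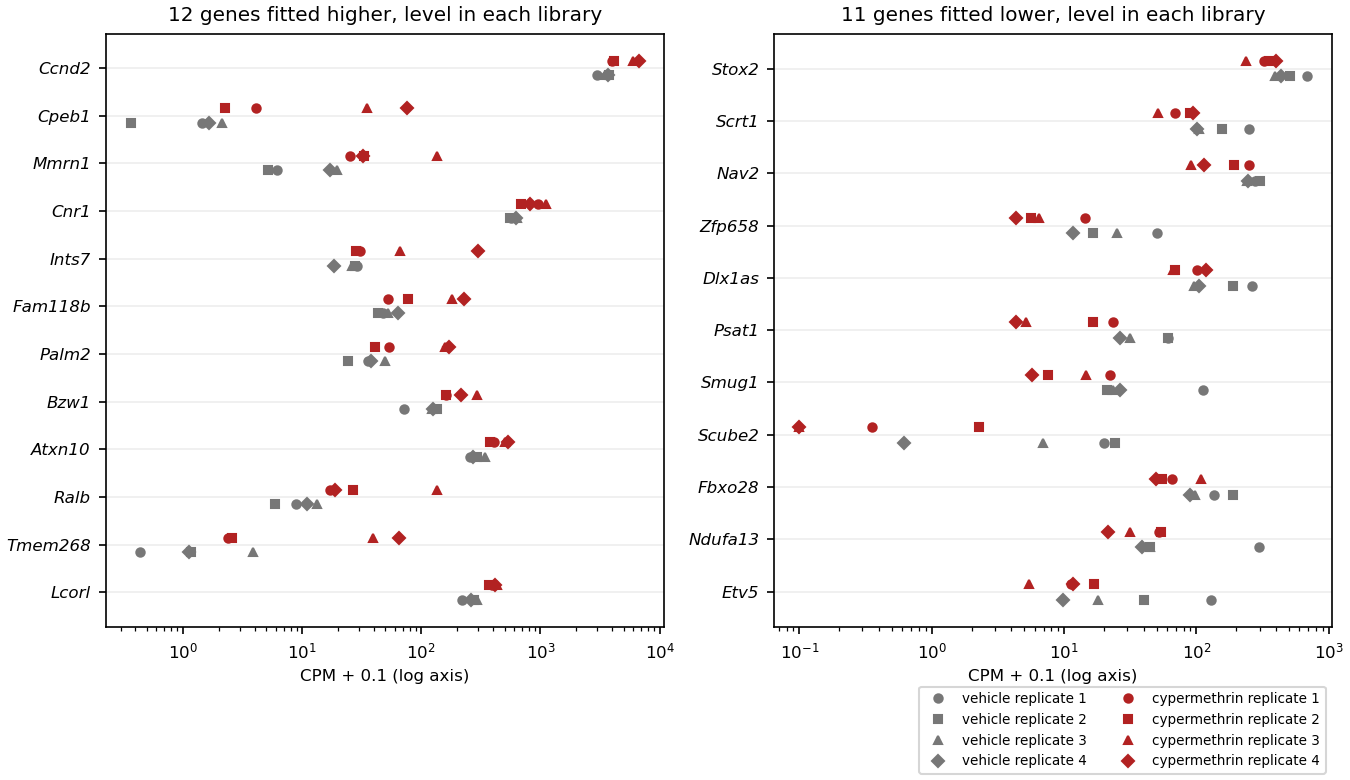
Level of each gene in each library, as CPM plus 0.1 on a log axis, for the 12 genes fitted higher (left) and 11 fitted lower (right), from those with the smallest unadjusted p. Grey symbols are vehicle and red symbols cypermethrin libraries, with 1 symbol shape per replicate number, which pairs no samples. Red triangles and diamonds (cypermethrin replicates 3 and 4) are often the extreme points.

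The genes fitted lower included a transcription factor of newborn neurons and an enzyme of serine synthesis. Scrt1 encodes a zinc finger repressor expressed in newborn neurons. It measured 248, 157, 104 and 102 CPM with vehicle and 69.1, 90.0, 51.5 and 94.8 CPM with cypermethrin, so the groups did not overlap but vehicle replicates 3 and 4 lay close to the exposed libraries. The log2 difference was -1.0 ± 0.31, and -0.67 without vehicle replicate 1. Stox2, a winged-helix protein gene, measured 684, 505, 392 and 432 CPM with vehicle and 326, 355, 239 and 396 CPM with cypermethrin, with overlap at the lowest vehicle and the highest cypermethrin library. Nav2, a neuron navigator that links microtubules to axon outgrowth, measured 276, 302, 241 and 245 CPM with vehicle and 249, 192, 90.6 and 114 CPM with cypermethrin. Its replicates 3 and 4 were low while cypermethrin replicate 1 lay within the vehicle range.

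Psat1 encodes phosphoserine aminotransferase, an enzyme of serine synthesis and a target of the amino acid stress response. It measured 61.3, 60.9, 31.3 and 26.3 CPM with vehicle and 23.5, 16.3, 5.05 and 4.20 CPM with cypermethrin. The groups did not overlap, and replicates 3 and 4 were lowest with cypermethrin. Its log2 difference of -1.86 ± 0.63 was accompanied by a difference of -1.21 ± 0.61 among stressed dams.

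Dlx1as is transcribed from the strand opposite Dlx1, a homeobox gene of the interneuron lineage, on chromosome 2 from 71516454 to 71537891 (mm10). It measured 261, 188, 95.9 and 104 CPM with vehicle and 100.1, 68.8, 66.4 and 118 CPM with cypermethrin, and the groups overlapped. Dlx1 itself measured 59.6, 131, 64.3 and 94.2 CPM with vehicle and 53.7, 45.0, 63.8 and 80.3 CPM with cypermethrin, also with overlap. Log2 differences were -0.88 ± 0.29 for Dlx1as and -0.53 ± 0.33 for Dlx1, and reads of the 2 genes cannot be told apart where they overlap unless the counting used strand. They became -0.55 for Dlx1as without vehicle replicate 1 and -0.26 for Dlx1 without vehicle replicate 2.

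In several of the genes fitted lower the difference rested on a high value in vehicle replicate 1. Ndufa13, a complex I subunit gene, measured 298, 44.3, 44.2 and 38.6 CPM with vehicle and 52.2, 53.7, 31.6 and 21.5 CPM with cypermethrin. Its log2 difference was -1.41 with all libraries and -0.088 without vehicle replicate 1. Etv5, an ETS factor downstream of fibroblast growth factor signals, measured 128, 40.1, 17.9 and 9.78 CPM with vehicle and 11.1, 16.7, 5.31 and 11.7 CPM with cypermethrin, and its difference moved from -2.13 to -1.01 in the same way. Smug1, a uracil-removing DNA glycosylase, moved from -1.85 to -0.91. Among the other genes fitted lower, log2 differences were -1.73 ± 0.57 for Zfp658, -0.88 ± 0.31 for Fbxo28 and -4.31 ± 1.49 for Scube2, the last at 0.252, 2.16, 0 and 0 CPM with cypermethrin.

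The pattern of extreme libraries held over the larger sets. Of the 315 genes fitted higher at an unadjusted p under 0.05, cypermethrin replicate 3 was the highest library in 168 and replicate 4 in 131. Over all tested genes those replicates were highest in 23.6% and 20.3%. In 169 of the 315 they were the 2 highest of the 8 libraries, 201 had cypermethrin replicates 1 and 2 both above the vehicle mean, and 60 had no overlap. Among the 176 genes fitted lower, 83 had replicates 3 and 4 as the 2 lowest libraries, 175 had cypermethrin replicates 1 and 2 both below the vehicle mean, and 58 had no overlap. Vehicle replicate 1 was the highest library in 96 of the 176 (54.5%), beside 16.0% of all tested genes. The median log2 difference was 1.15 in the first set and -1.54 in the second, at median levels of 51.2 and 20.7 CPM.

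Genes chosen for a wide gap between the groups included a DNA repair factor and an adrenergic receptor, most of them at low levels. Ercc8, a component of transcription-coupled DNA repair, measured 3.70, 4.01, 6.56 and 7.98 CPM with vehicle and 18.7, 34.5, 23.9 and 21.5 CPM with cypermethrin. The exposed libraries did not divide as they did for Cpeb1, and the log2 difference was 2.14 ± 0.63. Coro2b, an actin-binding coronin of neurons, had higher counts, at 69.4, 79.6, 64.6 and 67.7 CPM with vehicle and 130.2, 116, 115 and 146 CPM with cypermethrin. Ociad2, a mitochondrial and endosomal protein gene, had a log2 difference of 2.03 ± 0.62, and Klf2, a Kruppel-like transcription factor, one of 2.07 ± 1.02.

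In the other direction, Adra2a encodes the alpha-2A adrenergic receptor and measured 11.8, 10.1, 9.34 and 7.98 CPM with vehicle and 2.02, 1.54, 1.86 and 0 CPM with cypermethrin. Arhgef4, a guanine nucleotide exchange factor, measured 20.5, 30.7, 27.3 and 20.8 CPM with vehicle and 12.4, 10.8, 6.91 and 9.34 CPM with cypermethrin. The 4 libraries of each group lay close together in both genes. Dnmt3b, a de novo DNA methyltransferase, measured 13.5, 11.0, 15.4 and 9.52 CPM with vehicle and 4.04, 4.32, 0 and 5.14 CPM with cypermethrin, at a log2 difference of -1.88 ± 1.03. Alg12, a mannosyltransferase of N-glycan assembly, had a log2 difference of -2.41 ± 1.04 (-1.58 without vehicle replicate 1), and Tbc1d4, a Rab GTPase-activating protein, one of -1.96 ± 0.90. These genes were chosen for their gaps, so the absence of overlap in them is a description.

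Genes of GABA synthesis and interneuron identity showed no common direction. Fitted values were higher for 9 and lower for 12 of the 21 tested, and the median log2 difference was -0.06 beside 0.03 over all tested genes, and 1 (Gad2) had an unadjusted p under 0.05. Over all tested genes, beside which this and the lists below are given, 52.4% were fitted higher and 3.71% had an unadjusted p under 0.05. Gad2 and Gad1 encode the glutamate decarboxylases that make GABA, Gad1 being the gene for GAD67, after which the reporter is named. Gad2 measured 203, 265, 198 and 249 CPM with vehicle and 272, 207, 407 and 456 CPM with cypermethrin, and Gad1 measured 48.5, 42.7, 62.1 and 62.3 CPM with vehicle and 53.7, 73.1, 77.6 and 151 CPM with cypermethrin. Cypermethrin replicate 4 was highest for both genes, replicate 3 next, and both genes overlapped between groups. The log2 difference of Gad2 was 0.55 ± 0.25, and 0.066 without cypermethrin replicates 3 and 4, and that of Gad1 was 0.72 ± 0.36, and 0.34 without replicate 4. In bulk material, fewer cells of a type and less RNA per cell cannot be told apart, here and in every result that follows.

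Factors that specify interneurons of the medial ganglionic eminence had small fitted differences. Lhx6, the LIM homeobox factor of that lineage, measured 296, 335, 195 and 302 CPM with vehicle and 172, 219, 292 and 314 CPM with cypermethrin. Its log2 difference was -0.18 ± 0.21, and that of Sox6, which acts downstream of it, was 0.15 ± 0.21. The sign for Sox6 changed without cypermethrin replicate 2, to -0.017. Erbb4, the neuregulin receptor of tangentially migrating interneurons, had 0.04 ± 0.18, and its sign changed under upper quartile scaling, to -0.036. Dcx, a microtubule protein of migrating neurons, had 0.16 ± 0.13 and the narrowest interval of the set, -0.09 to 0.42. Cxcr4, the receptor that holds interneurons in their migratory streams, had 0.38 ± 0.36, and 0.68 without vehicle replicate 2.

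Sst encodes somatostatin, a neuropeptide of 1 class of cortical interneurons, and is a classical target of the cAMP response element (CRE). It measured 394, 124, 189.5 and 187 CPM with vehicle and 211, 190.0, 124 and 327 CPM with cypermethrin, with full overlap and a log2 difference of -0.07 ± 0.29. Vehicle replicate 1 was the highest of the 8 libraries, and without it the difference was 0.35. The full CRE, searched as TGACGTCA (its own reverse complement, so 1 search covers both strands), was found in RefSeq promoter windows of 250 bases before to 50 after the start site in 372 of 10172 tested genes with a window (3.66%). Of the 63 named genes with a window, 2 held it, Sst and Ints7. The 100 bases before each start site, from RefSeq in GRCm38.p6, are printed 5′ to 3′ to show where the element lies, with its letters in capitals. It begins 48 bases before the Sst start (minus strand, chr16:23890845-23890944) and 82 bases before the Ints7 start (plus strand, chr1:191575536-191575635).
Sst: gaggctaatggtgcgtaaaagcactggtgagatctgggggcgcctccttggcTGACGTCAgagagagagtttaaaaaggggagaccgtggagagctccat
Ints7: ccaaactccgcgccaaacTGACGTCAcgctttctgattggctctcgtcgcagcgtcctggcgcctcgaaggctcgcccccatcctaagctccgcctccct
A match is a description of the letters and not evidence of binding, and the 2 genes did not share a pattern across libraries, since Sst was highest in vehicle replicate 1 and Ints7 in cypermethrin replicate 4.

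**Figure D2:**
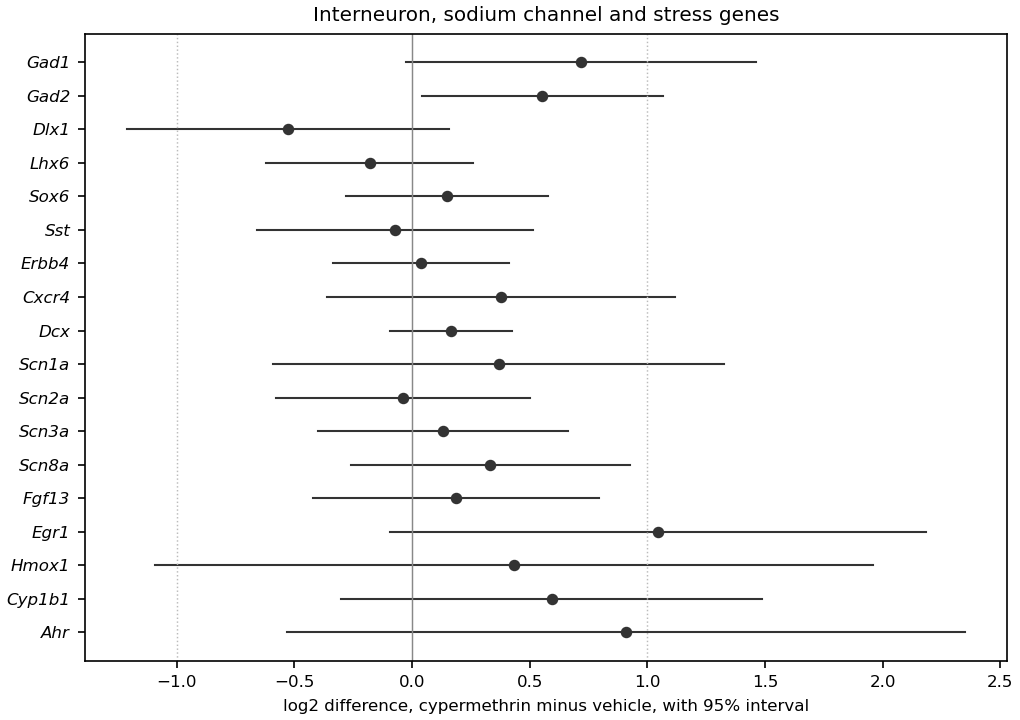
Fitted log2 difference between cypermethrin and vehicle (point) with its 95% interval (line) for 18 interneuron, sodium channel and stress response genes. Dotted lines mark a 2-fold change, and the interval of Gad2 alone lies wholly above 0.

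The sodium channel genes, which encode the molecular target of pyrethroids, were measured with moderate precision. Of 12 tested channel, auxiliary and channel-binding genes, 6 were fitted higher and 6 lower, 0 had an unadjusted p under 0.05 and 0 were free of overlap, with a median log2 difference of 0.06. Under upper quartile scaling that median was -0.03. Scn3a, the embryonic pore-forming subunit, measured 280.5, 347, 219 and 276 CPM with vehicle and 202, 179, 523 and 326 CPM with cypermethrin. Cypermethrin replicates 1 and 2 lay below and replicate 3 above the vehicle range, and the difference of 0.13 ± 0.26 became -0.25 without replicate 3. Scn2a had -0.04 ± 0.26 and Scn8a 0.33 ± 0.29, for 2 further pore-forming subunits, and Scn8a became 0.071 without cypermethrin replicate 4. For 5 of the 12 genes the 95% interval lay within a 2-fold change, and Fgf11, a channel-binding fibroblast growth factor homologue, had the smallest p of the list (0.151) at a difference of 0.65 ± 0.44 (0.42 without cypermethrin replicate 3).

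Potassium channel genes had 12 members fitted higher and 20 lower of 32 tested, with a median log2 difference of -0.19. Kcnt2, a sodium-activated potassium channel that opens as sodium enters, measured 71.0, 53.4, 66.9 and 64.1 CPM with vehicle and 114, 86.0, 164 and 131 CPM with cypermethrin. The groups did not overlap, all 4 exposed libraries exceeded the highest vehicle value, and the difference was 0.95 ± 0.31, or 0.65 without cypermethrin replicates 3 and 4. It overlaps an annotated transcript of the opposite strand. Kcnd2, a channel of the transient A-type current, measured 16.2, 37.4, 26.7 and 16.7 CPM with vehicle and 11.6, 12.0, 2.39 and 1.40 CPM with cypermethrin, and Kcna4, of the same kind of current, measured 16.5, 13.4, 11.9 and 16.2 and 9.58, 5.24, 1.59 and 0.934 CPM. Both were lowest in cypermethrin replicates 3 and 4, at differences of -1.81 ± 0.75 and -1.71 ± 0.73. Kcnh7 and Kcnq3 were also free of overlap, at 0.47 ± 0.31 and 0.32 ± 0.32. Kcnd2, Kcna4, Kcnh7, Kcnq3 and the list members below that do not lead their list by p were picked after their values were seen.

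Calcium channel, GABA receptor and glutamate receptor genes had 0 members with an unadjusted p under 0.05, beside 3.71% of all tested genes. Of 15 calcium channel genes, 10 were fitted higher and 5 lower, at a median of 0.10, and 11 were bounded within 2-fold. Of 20 genes for GABA receptors and chloride transport, 9 were fitted higher and 11 lower, at a median of -0.02. The 16 ionotropic glutamate receptor genes had 9 higher and 7 lower, at a median of 0.01, and 10 were bounded within 2-fold. The leading members by p were Cacna2d1 (0.36 ± 0.21), Gabra5 (0.84 ± 0.60) and Cnih3 (0.60 ± 0.35). Leaving out 1 library moved them to 0.093 for Cacna2d1 and 0.14 for Cnih3 without cypermethrin replicate 3 and 0.10 for Gabra5 without cypermethrin replicate 4.

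Other members of the endocannabinoid list were fitted in both directions. Of 9 tested, 6 were fitted higher and 3 lower, beside 52.4% higher over all tested genes. An unadjusted p under 0.05, found for 3.71% of all tested genes, was found for 2, Cnr1 and Cnrip1, which encodes a protein that binds the CB1 receptor. Cnrip1 measured 26.6, 27.2, 73.2 and 49.2 CPM with vehicle and 65.3, 59.5, 246 and 28.5 CPM with cypermethrin, with replicate 3 far above and the other 3 within the vehicle range. Dagla, the enzyme that makes the endocannabinoid 2-arachidonoylglycerol, had a log2 difference of -1.22 ± 0.61.

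Among dopamine genes, 3 of 6 were fitted higher and 3 lower. Drd2, the D2 receptor, measured 44.4, 0.267, 6.56 and 1.54 CPM with vehicle and 0.757, 1.54, 0.531 and 0 CPM with cypermethrin. The difference of -4.11 ± 1.49 became -1.89 without vehicle replicate 1, the only library above 10 CPM.

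Genes that guide and move migrating cells were close to balanced. Of 31 guidance, chemokine and neuregulin genes, 16 were fitted higher and 15 lower, at a median of 0.01, with 1 member higher and 1 lower at an unadjusted p under 0.05. Epha5, an ephrin receptor, measured 528, 437, 561 and 574 CPM with vehicle and 634, 688, 729 and 746 CPM with cypermethrin. The groups did not overlap, the 4 exposed libraries lay close together, and the difference was 0.41 ± 0.16, 0.33 to 0.46 when 1 library at a time was left out. Sema5b, a semaphorin, measured 72.0, 25.6, 27.5 and 32.9 CPM with vehicle and 22.4, 20.0, 7.17 and 12.6 CPM with cypermethrin, also without overlap. Of 30 cytoskeletal genes, 15 were fitted higher and 15 lower and 25 were bounded within 2-fold. Mapt, which encodes tau, had -0.34 ± 0.16, and -0.20 without vehicle replicate 1.

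Synaptic vesicle and SNARE genes had 14 of 24 members fitted higher and 15 bounded within 2-fold. Nsf, the ATPase that takes SNARE complexes apart, measured 115, 111, 97.9 and 99.3 CPM with vehicle and 76.9, 83.6, 29.0 and 49.5 CPM with cypermethrin. The groups did not overlap, and replicates 3 and 4 were lowest. Cplx2, a complexin that binds assembled SNARE complexes, had 0.56 ± 0.23. Of the genes controlling translation and splicing, 16 of 27 were fitted higher and 22 were bounded within 2-fold. Besides Cpeb1, Cpeb3 had -1.19 ± 0.46 and Elavl1, which encodes the RNA-binding protein HuR, 0.43 ± 0.21.

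Other cell cycle genes had fitted values in both directions. Of 24 G1 regulators, 11 were fitted higher and 13 lower, at a median of -0.01, and Ccnd2 was the 1 member with an unadjusted p under 0.05 or without overlap. Of 28 replication and mitosis genes, 13 were fitted higher and 15 lower, at a median of -0.08. Ube2c, a ubiquitin-conjugating enzyme of mitotic exit, measured 1.35, 27.8, 25.0 and 25.5 CPM with vehicle and 30.3, 39.2, 79.4 and 64.9 CPM with cypermethrin, without overlap, and vehicle replicate 1 was far below the other vehicle libraries. Of 21 p53 and apoptosis genes, 12 were fitted higher and 0 had an unadjusted p under 0.05. Ccng1, a p53 target, led that list at 0.58 ± 0.41, and its difference was -0.094 without cypermethrin replicate 3.

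Lists for neuronal activity and hormone signalling had members fitted in both directions. Of 21 immediate early genes, 10 were fitted higher and 11 lower, at a median of -0.15. Egr1, a transcription factor induced within minutes of activity, measured 16.5, 17.1, 27.3 and 32.7 CPM with vehicle and 15.1, 23.1, 112 and 43.0 CPM with cypermethrin. Replicate 3 was the highest library, and without it the difference of 1.05 ± 0.55 became 0.20. Among glucocorticoid response genes, fitted values were higher for 8 of 17, with 0 at an unadjusted p under 0.05, and Nr3c2, the mineralocorticoid receptor, led at -1.65 ± 1.22, which became -3.95 without cypermethrin replicate 1. Of 10 thyroid and sex hormone receptor genes, 3 were fitted higher and 7 lower, at a median of -0.67 from wide intervals, since 3 were bounded within 2-fold. Rxra and Rxrb, the retinoid X receptors that partner the thyroid hormone receptor, had -1.25 ± 0.68 and -0.92 ± 0.53 without overlap, while the coactivator gene Ncoa1 had 0.39 ± 0.19, and 0.20 without cypermethrin replicate 4.

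Genes of foreign compound metabolism had 14 of 26 tested members fitted higher, at a median of 0.06, and 2 with an unadjusted p under 0.05. Cyb5r3, the cytochrome b5 reductase that passes electrons in lipid and drug metabolism, measured 108, 131, 153 and 134 CPM with vehicle and 109, 143, 434 and 246 CPM with cypermethrin. Replicates 3 and 4 were high while replicates 1 and 2 lay within the vehicle range, and the difference was -0.062 when replicates 3 and 4 were left out. Gstm7, a glutathione transferase, had 1.01 ± 0.49. Cyp1b1, a target of the aryl hydrocarbon receptor, had 0.59 ± 0.44, and Ahr, the receptor itself, 0.91 ± 0.70. They became -0.16 for Cyp1b1 without cypermethrin replicate 3 and 0.33 for Ahr without replicate 4.

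Oxidative stress defence had 12 of 26 members fitted higher, with 0 at an unadjusted p under 0.05. Gclm, the regulatory subunit for glutathione synthesis, measured 15.5, 22.7, 23.2 and 26.3 CPM with vehicle and 30.8, 45.3, 36.1 and 53.2 CPM with cypermethrin, without overlap, at 0.91 ± 0.51. Hmox1, heme oxygenase, had 0.43 ± 0.74, and -0.12 without cypermethrin replicate 3. Of 18 heat shock genes, 12 were fitted higher, led by the heat shock factor gene Hsf2 at 0.95 ± 0.37 (0.49 without cypermethrin replicate 3), and the chaperone gene Hsp90aa1 was free of overlap at 0.27 ± 0.15. The unfolded protein and integrated stress response list had 13 of 25 members fitted higher, and Psat1 was its 1 member with an unadjusted p under 0.05. Of 14 inflammatory genes 7 were fitted higher, with Nfkb1 leading at -1.28 ± 0.62, and of 37 nuclear oxidative phosphorylation genes 16 were, with Atp5b leading at 0.28 ± 0.19 (0.049 without cypermethrin replicate 3) and 21 bounded within 2-fold. Of the 33 list medians, 7 changed from above to below 0 under upper quartile scaling: those of the sodium channel, glutamate receptor, guidance, cytoskeletal, synaptic vesicle, unfolded protein and xenobiotic lists.

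**Figure D3:**
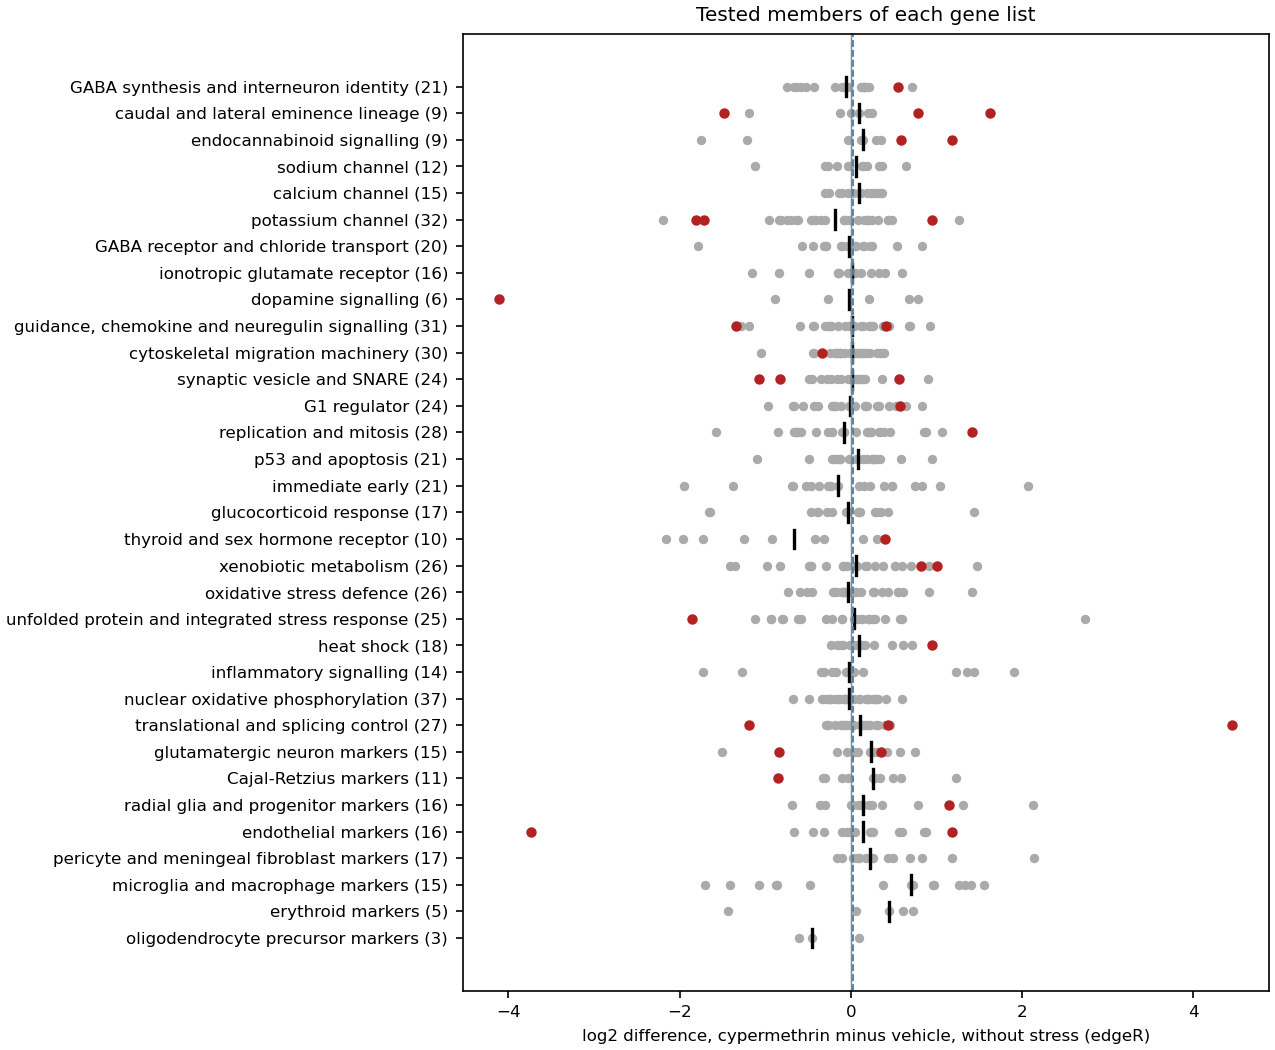
Fitted log2 difference of every tested member of each gene list (points), with the number of tested members in parentheses. Red points have an unadjusted p under 0.05, black bars are list medians and the dashed line is the median of all tested genes (0.03). Most medians lie near that line.

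Markers of glutamatergic neurons and of oligodendrocyte precursors separated the groups as sums. The summed level of 15 glutamatergic neuron markers was 5781, 5914, 5012 and 5228 CPM with vehicle and 6074, 6329, 5971 and 6926 CPM with cypermethrin. The groups did not overlap, and an exact two-sided permutation test gave p = 0.0286, the smallest that 4 against 4 allows, or 0.186 after adjustment over 13 library measures. Of its 15 members 11 were fitted higher, among them Tbr1 (0.35 ± 0.15), a deep-layer factor, and Sox5 (0.26 ± 0.17). The other 4 were fitted lower, down to -1.51, and 1 member in each direction had an unadjusted p under 0.05 in edgeR. Under upper quartile scaling 9 members were fitted higher and 6 lower. The summed oligodendrocyte precursor markers were 79.6 to 132 CPM with vehicle and 50.6 to 74.7 CPM with cypermethrin, at the same exact permutation p and adjusted value, and of that list Nkx2-2 was at 0 in all 8 libraries. Only 3 of its 8 members were tested, 1 fitted higher and 2 lower. Pdgfra made up much of the sum, at means of 62.9 and 45.8 CPM beside summed means of 100.5 and 67.7 CPM, vehicle first. Its own groups overlapped, at a log2 difference of -0.45 ± 0.42. The part of these other cells in any difference above was not tested.

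Other marker sums overlapped between the groups, with 1 library standing out. Microglia and macrophage markers summed to 779 CPM in cypermethrin replicate 3, against 112 to 136 CPM in the other exposed libraries and 76.1 to 248 CPM with vehicle. Of these 15 markers 9 were fitted higher and none was at 0 throughout. Csf1r, the receptor that maintains microglia, measured 6.06, 17.9, 22.7 and 19.0 CPM with vehicle and 15.4, 5.55, 143 and 0.934 CPM with cypermethrin, and its difference of 1.33 ± 0.78 became -1.13 without replicate 3. The same library had the highest endothelial sum (1091 CPM, against 243 to 620 CPM in the other 7) and the highest pericyte and meningeal fibroblast sum (5025 CPM, against 1693 to 4102 CPM). Cajal-Retzius markers summed to 2252 to 3069 CPM with vehicle and 1879 to 3839 CPM with cypermethrin, and Ndnf, a member, had -0.85 ± 0.38. Radial glia and progenitor markers summed to 1604 to 1820 CPM with vehicle and 1716 to 2014 CPM with cypermethrin, and Gli3, a member, had 1.15 ± 0.53, and 0.58 without cypermethrin replicate 3. Fitted higher were 15 of 17 pericyte and meningeal fibroblast, 13 of 16 radial glia, 9 of 16 endothelial and 6 of 11 Cajal-Retzius markers tested. Over all tested genes 52.4% were fitted higher. Under upper quartile scaling these counts became 11, 11, 8 and 6, in the same order. Erythroid markers overlapped, and 6 of them, including the adult globins and Klf1, were at 0 in all 8 libraries. The labelled interneuron markers were present in every library, at a summed 1451 to 1938 CPM with vehicle and 1529 to 2395 CPM with cypermethrin.

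**Figure D4:**
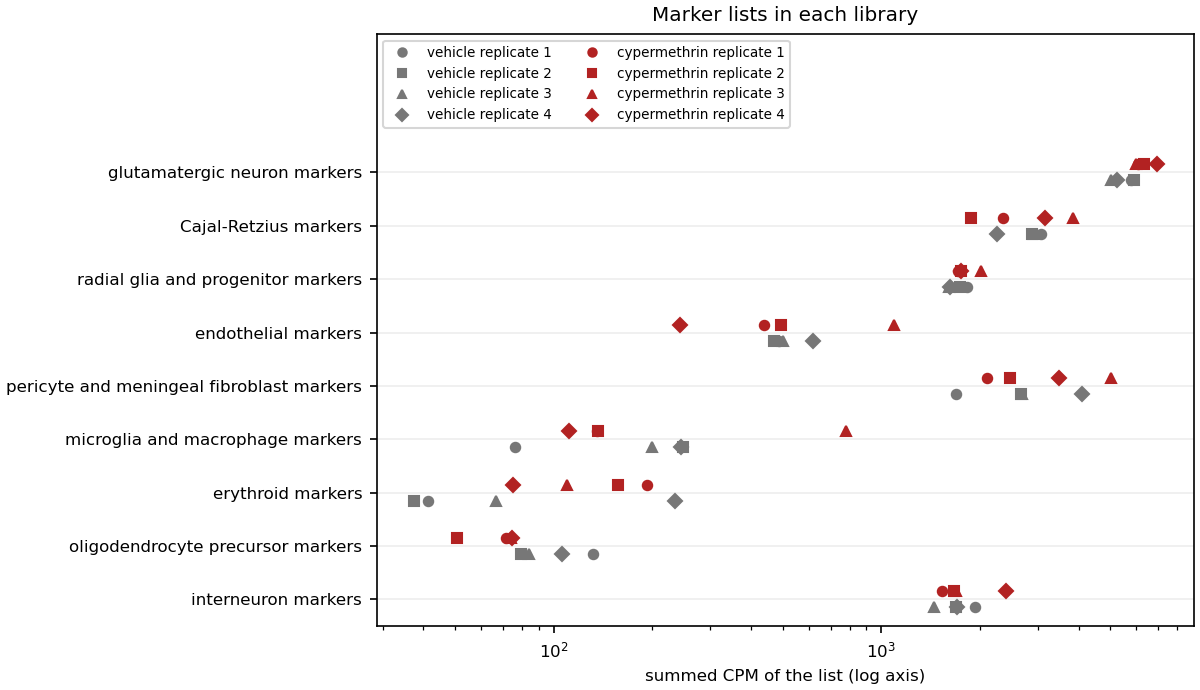
Summed CPM of each marker list in each library, on a log axis, with grey vehicle and red cypermethrin symbols and 1 shape per replicate number. Cypermethrin replicate 3 (red triangle) has the highest microglia, endothelial, pericyte and Cajal-Retzius sums.

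The same exposure was also measured in restrained dams, in 8 libraries that share none with the comparison above. They include the stressed vehicle replicate 1, which had almost no Y-linked transcripts. Among restrained dams edgeR called 0 genes, with 713 at an unadjusted p under 0.05 (5.39%). There limma voom called 0 and DESeq2 called 2, Dnajc1 and Tnfrsf22. The interaction of cypermethrin and stress, which tests whether the exposure acted differently with and without restraint, had 0 called genes in edgeR, 622 at an unadjusted p under 0.05 (4.70%), and 0 called in DESeq2 and limma voom. Signs matched for 50.4% of all tested genes, for 164 of the 315 fitted higher without stress (52.1%) and for 103 of the 176 fitted lower (58.5%). Of those genes 7 (2.22%) and 9 (5.11%) also had an unadjusted p under 0.05 in the same direction with stress, beside 2.48% of all tested genes. Without that library, an alternative added after seeing the data, edgeR and limma voom again called 0 genes, and 471 had an unadjusted p under 0.05 in edgeR (3.56%). DESeq2 then called Olfml2b and C130046K22Rik in place of Dnajc1 and Tnfrsf22. The interaction again had 0 called genes in edgeR, DESeq2 and limma voom, and 552 at an unadjusted p under 0.05 in edgeR (4.17%). Signs then matched for 50.5% of all tested genes, for 184 of the 315 (58.4%) and for 100 of the 176 (56.8%). Those with an unadjusted p under 0.05 in the same direction became 9 (2.86%) and 4 (2.27%), beside 1.81% of all tested genes, and held 5 of the first 7 and 1 of the first 9.

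Cpeb1 was among the 7, at a log2 difference of 3.21 ± 1.15 with stress beside 4.45 ± 1.08 without, and at 2.92 ± 1.20 without the stressed vehicle replicate 1. Dnajc25, Etfa, Fank1, Gm6225, Nmi and Ogfrl1 were the others fitted higher in both. Etfa, an electron transfer flavoprotein subunit of mitochondria, had 0.98 ± 0.47 without and 1.20 ± 0.47 with stress, and 1.31 ± 0.50 without that library. Ogfrl1 had 0.75 ± 0.33 and 0.80 ± 0.33, and 0.87 ± 0.35 without that library. Fank1 and Nmi no longer had an unadjusted p under 0.05 without it. Those fitted lower in both were Psat1, Fn3krp, Mcmbp, Pisd-ps3, Rrn3, Smug1, Tspan18, Usp31 and Zfp637, and without that library Psat1 alone of the 9 kept an unadjusted p under 0.05, at -1.43 ± 0.62. Mcmbp, a binding partner of the replicative helicase, had -0.69 ± 0.32 without and -0.69 ± 0.32 with stress, the latter becoming -0.20 ± 0.28 without that library. Rrn3, an initiation factor of ribosomal RNA synthesis, had -0.83 ± 0.40 and -0.89 ± 0.40, the latter becoming -0.31 ± 0.37. Tspan18, a tetraspanin, measured 208, 216, 167 and 180.2 CPM with vehicle and 105, 145, 158 and 130.3 CPM with cypermethrin without stress, free of overlap, at -0.52 ± 0.20, beside -0.42 ± 0.20 with stress and -0.36 ± 0.21 without that library. These genes were picked after their values were seen.

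The leading genes of the comparison without stress mostly had smaller differences in restrained dams. Ccnd2 had 0.09 ± 0.14 with stress, Cnr1 0.15 ± 0.15, Epha5 0.00 ± 0.16 and Kcnt2 -0.16 ± 0.30, and without the stressed vehicle replicate 1 these became 0.071, 0.087, -0.032 and -0.0020. Their interaction terms had unadjusted p-values of 0.0172, 0.0507, 0.0781 and 0.0155 in edgeR, and none passed adjustment (adjusted p of at least 0.985). Because these genes were chosen for their difference without stress, a smaller value elsewhere is a description. Of the 78 named genes 42 had the same sign with and without stress, and 41 without the stressed vehicle replicate 1.

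**Figure D5:**
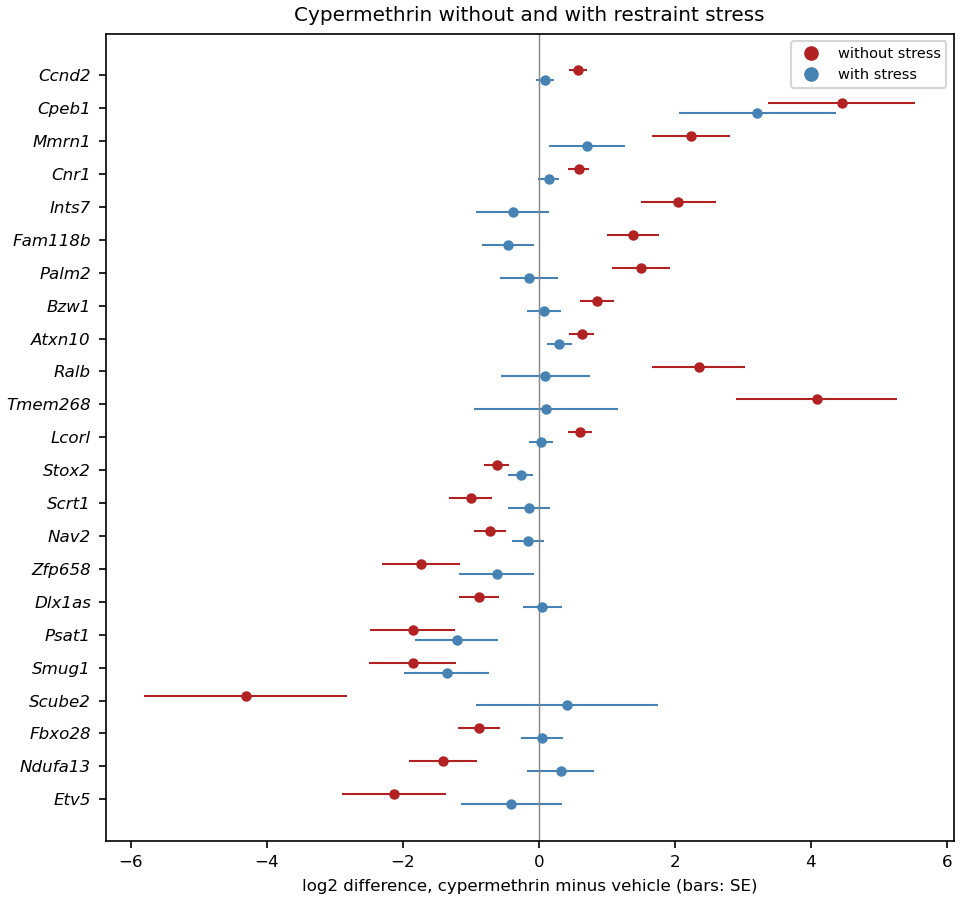
Fitted log2 difference between cypermethrin and vehicle without (red) and with (blue) restraint stress, with bars of 1 SE, for 23 of the genes with the smallest unadjusted p without stress. The blue points lie nearer 0 than the red points in all 23 genes, which were chosen on the red values. Blue values include the stressed vehicle replicate 1.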

How the data were processed

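RNA of laser-captured GFP-positive cells was sequenced as total RNA with the Nugen Trio kit, per the labels' protocols. The values deposited by the authors are whole-number counts of reads for 24539 gene symbols in 16 samples. Reads were aligned with STAR 2.5 to mm10, per the submitters' processing notes, and how reads were counted (tool, annotation, strand use, filters) is not given in the sources used here. Samples were grouped by the exposures in their labels, and replicate numbers, given in accession order, pair no samples. Each replicate is an embryo of a separate litter.

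Genes were kept by filterByExpr with a count minimum of 10 (13224 genes). edgeR 4.0.16 in R 4.3.3 was fitted to all 16 libraries with 1 mean per group, TMM scaling and robust quasi-likelihood dispersions (12 residual degrees of freedom). A gene was called when its p, adjusted by Benjamini-Hochberg over all tested genes, was under 0.05. CPM were computed on TMM-scaled library sizes of the tested genes. SE and 95% intervals come from the F statistic. Total counts were 2291283 to 4091668 in the 8 libraries compared, and the common biological coefficient of variation between embryos was 0.586. DESeq2 1.42.0 and limma 3.58.1 (voom), other scalings, filters, and the number in the library descriptions as a term or within each value were alternatives. Further alternatives left out each of the 8 libraries compared, or the stressed vehicle replicate 1. The remaining stressed libraries were not left out in turn. The edgeR fit of cypermethrin against vehicle without stress was tested on simulated data, and the other fits were not.

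Named genes were the 12 in each direction with the smallest p at a mean of at least 5 CPM, the member with the smallest p of each of 33 gene lists, a set of 21 listed interneuron, channel and stress genes (Fos and Nqo1 had too few counts) and the 5 in each direction with the widest gap between groups on log2(CPM + 1), leaving out models known only by numbers. A few genes that the rule names are not reported here. Genes, lists and tests were chosen with earlier results of these data known. Positions are from GENCODE vM21 (mm10), which matched 23879 symbols. Of 77 named genes with a unique entry, 20 overlap another gene of the table. Promoter windows are from RefSeq and matched 76.9% of tested genes, under the 80% needed to compare gene sets, so motif shares were not compared between sets.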

Additional observations from a re-analysis of the deposited data

Results flagged for a closer look

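A library far from the other 3 of its group was found for 24 of 182 groups of 4 values examined. The rule is met by about 1 in 20 groups of normally distributed values. Most groups here were CPM of named genes, many chosen by their p or gap, so the 24 cannot be tested against that rate. Of the 24, 10 were in cypermethrin replicate 3 and 6 in vehicle replicate 1.

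Cypermethrin replicate 3 stood above its group at 135 CPM for Mmrn1, 135 CPM for Ralb, 788 CPM for Col4a1, 143 CPM for Csf1r, 70.4 CPM for Pdgfra and 152 CPM for Cyp1b1. Col4a1 encodes a basement membrane collagen, and the other 3 exposed libraries had 238 to 325 CPM of it. Pdgfra marks oligodendrocyte precursors and some meningeal cells. The same library stood below its group at 386 CPM for Mapt and 0 CPM for Alg12. Its summed radial glia and progenitor markers were 2014 CPM and its summed microglia and macrophage markers 779 CPM, above the other 3 exposed libraries. Cypermethrin replicate 4 had 296 CPM of Ints7.

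Cypermethrin replicate 1 had 9.08 CPM of Nr3c2 against at most 1.06 CPM in the other exposed libraries. Cypermethrin replicate 2 had 2.16 CPM of Scube2, a secreted signalling protein, 0.617 CPM of Ly6c1, an endothelial surface protein at 0 in the other 3, and 50.6 CPM of summed oligodendrocyte precursor markers, the lowest of its group.

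Vehicle replicate 1 had 111 CPM of Smug1, 298 CPM of Ndufa13, 44.4 CPM of Drd2 and 36.0 CPM of Alg12, each far above the other vehicle libraries. It had 1.35 CPM of Ube2c and a total of 3013350 counts, each the lowest of its group. Vehicle replicate 2 had 84.4 CPM of Cxcr4, replicate 3 had 17.9 CPM of Nr3c2 and replicate 4 had 235 CPM of summed erythroid markers. The cause of these values was not tested.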

How the results depend on the processing

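For cypermethrin without stress 0 genes were called under each of the 21 alternatives run. The 491 genes at an unadjusted p under 0.05 became 1028 without a count filter, 61 within the first value of the number in the library descriptions (3 libraries) and 145 with cypermethrin replicates 3 and 4 both left out, an alternative added after seeing the data, and ran from 334 to 766 when 1 library at a time was left out. Among stressed dams DESeq2 called 2 genes where edgeR called 0, and 2 others without stressed vehicle replicate 1, also left out after seeing the data. Of 1627 refitted differences of the 78 named genes 40 changed sign, in 21 genes. With limma voom Csf1r was at -0.13 and Erbb4 at -0.0062, and with upper quartile scaling Erbb4 was at -0.036. Within the second value of that number Lhx6 was at 0.15 and Sst at 0.19. Within the first value Fgf11 was at -0.17, Cnih3 -0.65, Nr3c2 0.90, Cyb5r3 -0.14, Hsf2 -0.17, Gli3 -0.10, Erbb4 -0.40, Cxcr4 -0.34, Dcx -0.014, Scn2a 0.31, Scn3a -0.64, Egr1 -0.15 and Hmox1 -0.39. Without cypermethrin replicates 3 and 4 Cyb5r3 was at -0.062, Csf1r -0.65, Erbb4 -0.075, Scn2a 0.049, Scn3a -0.56, Fgf13 -0.058, Egr1 -0.29 and Cyp1b1 -0.080. Leaving out 1 library at a time gave -0.35 to 0.35 for Sst, -0.017 to 0.27 for Sox6, -0.13 to 0.14 for Erbb4, -0.13 to 0.076 for Scn2a, -0.25 to 0.32 for Scn3a, -0.11 to 0.31 for Fgf13, -0.094 to 0.87 for Ccng1, -0.049 to 0.67 for Col4a1, -1.13 to 1.73 for Csf1r, -0.12 to 0.71 for Hmox1 and -0.16 to 0.80 for Cyp1b1. The cause of these sign changes was not tested. With upper quartile scaling 47.0% of genes at an unadjusted p under 0.05 were fitted higher, against 64.2% with TMM. No paired analysis was possible because replicate numbers were given in accession order. With 4 embryos a group and a median SE of 1.17 in the lowest 25% of genes by level, differences of low genes were not resolved.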

Other observations

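Some genes were counted in every library of 1 group and in none of the other. There were 14 such genes, 12 of them counted only with vehicle and 2 only with cypermethrin, and 1 passed the filter on low counts. Ripk4, a kinase of epithelial differentiation and the gene that passed, had 51 counts over the 4 vehicle libraries and 0 over the 4 cypermethrin libraries, with an unadjusted p of 0.00246 and an adjusted p of 0.999 in edgeR. Maob, the monoamine oxidase of glia and serotonergic neurons, had 46 counts with vehicle, and Bdh2, a dehydrogenase of iron and ketone metabolism, had 43. Gata6, a factor of endoderm and blood vessels, had 19. Only Kif6, a kinesin gene with 13 counts, and Gm15850, with 60, were counted in all cypermethrin libraries and in none with vehicle. A count of 0 over a group allows up to 3 counts, and these genes were picked after their values were seen.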
